A study of Mus musculus with 6 samples.

Results

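Fc receptors for IgG were followed through bulk RNA-seq of subcutaneous CT2A tumours, a mouse glioma cell line grown under the skin of mice. The group was chosen by gene symbol and holds 6 of the 55291 symbols in the count table. Its members are the activating receptors Fcgr1, Fcgr3 and Fcgr4, the inhibitory receptor Fcgr2b, the common signalling chain Fcer1g, and the neonatal receptor Fcgrt. All 6 were tested. The study has 2 groups: 3 libraries from tumours labelled Siglece KO and 3 from tumours labelled WT, with no treatment named. The source label reads brain while the tissue label reads subcutaneous tumour, and the tissue label is followed here. Siglece encodes Siglec-E, an inhibitory receptor of myeloid cells that binds sialic acid. The labels give the CT2A line for both groups and do not say whether the genotype is that of the host mouse or of the CT2A cells. They call the material CT2A cells, 5000 to 20000 per sample, although immune genes were detected in each library. Strain, age and sex of the mice are not stated in the labels. Whether replicates were different animals is not stated either, so p-values measure the spread between these libraries, which may be partly technical.

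An IgG antibody binds its target with its variable arms and is read by immune cells through its Fc stem. The activating receptors Fcgr1 (CD64, of high affinity), Fcgr3 (CD16) and Fcgr4 (CD16-2) have no ITAM signalling motif of their own. They pair with Fcer1g, whose ITAM motif is phosphorylated by Src family kinases and then recruits the kinase Syk. Fcgr2b (CD32B) binds the same antibodies but carries an inhibitory ITIM motif, which recruits the lipid phosphatase encoded by Inpp5d. The balance of activating and inhibitory receptors on a macrophage is known to set the threshold at which IgG complexes trigger it. Fcgrt encodes the heavy chain of FcRn, which pairs with beta2-microglobulin (B2m) and returns IgG and albumin from endosomes to the cell surface.

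By their mm10 positions, 4 of the 6 genes lie on chromosome 1: Fcgr2b (ENSMUSG00000026656.15, 170958617 to 170976547, minus strand), Fcgr4 (ENSMUSG00000059089.4, 171018920 to 171029761, plus strand), Fcgr3 (ENSMUSG00000059498.13, 171051174 to 171064935, minus strand) and Fcer1g (ENSMUSG00000058715.11, 171229572 to 171234365, minus strand). Fcgr1 (ENSMUSG00000015947.10) is on chromosome 3 (96282909 to 96293969, minus strand) and Fcgrt (ENSMUSG00000003420.8) on chromosome 7 (45092990 to 45103851, minus strand). The levels count reads over whole genes, that is, over 874 merged exon bases for Fcer1g and up to 5790 for Fcgr2b.

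Promoter sequence is shown for the 3 activating receptors because they share a short word close to their start. RefSeq promoters (build GRCm38.p6) matched all 6 genes. Both strands were searched for the PU box GAGGAA, the core of sites bound by the myeloid factor PU.1, and for the interferon-type GAS word TTCNNNGAA. These words were picked with the sequences in view. The 120 bases before each start are printed 5′ to 3′ on the gene's strand, and capitals mark the PU box, which lies on the opposite strand in each and so reads TTCCTC.
Fcgr1, chr3:96293970-96294089, minus strand: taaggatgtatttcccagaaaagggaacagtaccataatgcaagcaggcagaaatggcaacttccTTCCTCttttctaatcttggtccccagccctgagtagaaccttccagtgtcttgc
Fcgr3, chr1:171059404-171059523, minus strand: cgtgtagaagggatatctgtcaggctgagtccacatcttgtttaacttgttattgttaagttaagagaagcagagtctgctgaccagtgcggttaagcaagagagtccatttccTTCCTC
Fcgr4, chr1:171018806-171018925, plus strand: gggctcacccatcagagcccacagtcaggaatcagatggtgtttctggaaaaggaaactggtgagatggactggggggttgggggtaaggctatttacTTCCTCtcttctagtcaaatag

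The word begins at base -55 of Fcgr1, base -6 of Fcgr3 and base -22 of Fcgr4, counting -1 as the last base before the start. Fcgr3 has another listed start close by, from which the same word begins at base -15. The printed Fcgr3 stretch lies inside the gene span given above, before an internal start. Of 32851 promoters in the table, 11.6% hold it in the same window. It was not found in the 250 bases before the starts of Fcgr2b, Fcer1g or Fcgrt, and 23.3% of promoters hold it within 250 bases. The Fcgr2b start searched is also internal to its gene span, and 57 of the 120 bases before it lie in counted exons. The GAS word occurred once among the members, in Fcgr1 at base -109 (ttcccagaa above), and 3.15% of promoters hold it within 120 bases. The 2 words do not overlap there. A match describes these letters and is not evidence of binding.

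Library totals ran from 24369359 to 40574093 counts. Siglece was at 0, 8 and 0 counts in KO replicates 1, 2 and 3 and at 64 to 99 counts in WT. The glioma markers Sox2, Olig2 and Nes were detected in every library, but Aqp4 was at 0 to 17 counts and Gfap at 0 in KO replicate 3. The summed level of 10 glial or glioma genes was 394, 739 and 131 CPM (read counts scaled by the TMM-adjusted library size) in KO replicates 1, 2 and 3, against 888 to 938 CPM in WT. Pdgfra, which went the other way, held 310, 107 and 66.2 CPM of the KO sums and 26.5 to 39.0 CPM of the WT sums. It was thus most of the sum in KO replicate 1. KO replicate 2 lay nearest the WT libraries by these sums, and KO replicate 3 farthest. Each column header carries an H number and a longer serial number that begins with FRAS. The FRAS numbers of KO libraries do not interleave with those of WT libraries. By H number the WT libraries lie between KO libraries, and KO replicate 1 has the highest number, far from the rest. What either number stands for is not stated, and whatever the FRAS numbers mark cannot be told apart from genotype.

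All 6 Fc receptor genes were higher in KO tumours. They rose between 3.13-fold (Fcgr4) and 7.98-fold (Fcgrt), and for each gene the lowest KO library lay above the highest WT library. The inhibitory receptor Fcgr2b rose 5.82-fold, more than any of the 3 activating receptors. In edgeR's quasi-likelihood test 11.2% of all 18621 tested genes were called higher in KO and 0.226% lower, and 24.6% had KO libraries all above WT. The median log2 fold change of the 6 members was 2.26, against -0.05 over all tested genes. In bulk tumours, more cells that carry a receptor and more RNA per cell cannot be told apart.

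**Figure D1:**
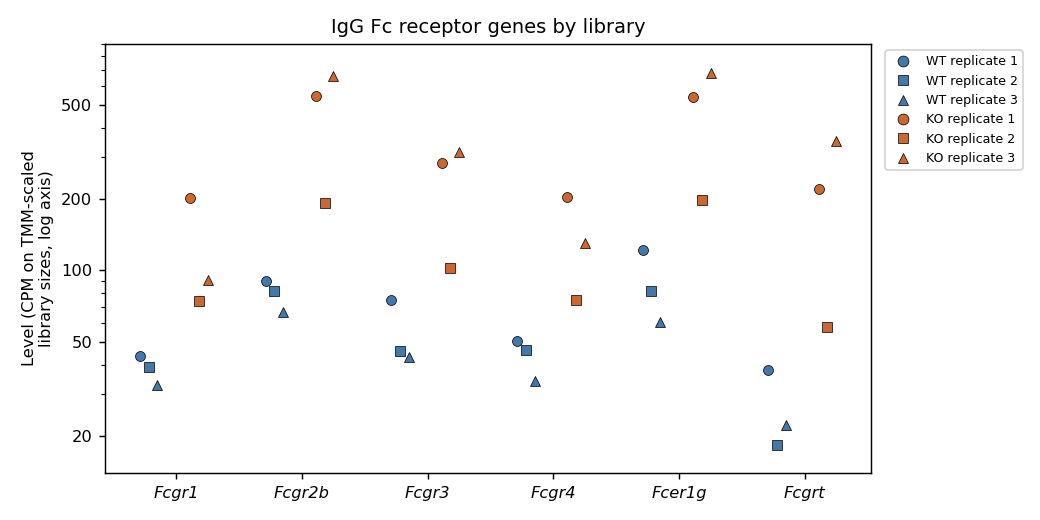
Level of each Fc receptor gene (CPM on TMM-scaled library sizes, log axis) in the 3 WT libraries (blue) and the 3 KO libraries (orange), 1 point per library. KO replicate 2 is the lowest KO library for every gene, and for Fcgr1 and Fcgr4 the highest is KO replicate 1 while for the others it is KO replicate 3.

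Fcgr1, the high-affinity receptor that marks macrophages and monocyte-derived cells, was at 202, 74.2 and 91.4 CPM in KO replicates 1, 2 and 3. In WT replicates 1, 2 and 3 it was at 43.4, 39.2 and 32.8 CPM. KO replicate 1 stood above the other KO libraries, and the groups did not overlap. In edgeR its log2 fold change was 1.67 (SE 0.41) with an adjusted p of 0.0399.

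Fcgr4, which binds IgG2 subclasses on myeloid cells, followed a similar course. It was at 205, 74.8 and 130 CPM in KO replicates 1, 2 and 3. WT replicates 1, 2 and 3 held 50.5, 46.2 and 34.2 CPM, all below the lowest KO library. In edgeR its log2 fold change was 1.65 (SE 0.40) with an adjusted p of 0.0382.

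Fcgr3, the low-affinity receptor of macrophages, neutrophils, mast cells and NK cells, differed from these in KO replicate 3. It was at 283, 102 and 315 CPM in KO replicates 1, 2 and 3, so that KO replicate 3 was the highest library rather than an intermediate one. The WT values were 74.7, 45.7 and 43.3 CPM, with WT replicate 1 above the others. In edgeR its log2 fold change was 2.10 (SE 0.47) with an adjusted p of 0.0324.

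Fcgr2b, the inhibitory receptor of macrophages and B cells, was at 541, 192 and 658 CPM in KO replicates 1, 2 and 3. In WT it held 90.5, 81.7 and 66.7 CPM. Even KO replicate 2 was above each WT library. In edgeR its log2 fold change was 2.54 (SE 0.48) with an adjusted p of 0.0249. Fcgr2b and Fcgr3 are similar in sequence in their extracellular part: of the 100-base words in Fcgr3 transcripts, 2.54% also occurred in Fcgr2b transcripts, and of the 50-base words 9.58%. How reads with several alignments were counted is not stated, and an exchange of counts between these genes was not tested. Fcgr2b also shares 155 exon bases with Gm38204 on the opposite strand, a gene listed at 0 to 9 counts per library.

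Fcer1g, the chain that the activating receptors need for surface expression and signalling, was at 536, 199 and 676 CPM in KO replicates 1, 2 and 3. WT replicates 1, 2 and 3 held 122, 82.2 and 60.5 CPM. The ordering of the KO libraries was that of Fcgr2b and Fcgr3. In edgeR its log2 fold change was 2.42 (SE 0.52) with an adjusted p of 0.0291.

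Fcgrt had the greatest fold change and the greatest spread. It was at 219, 57.7 and 352 CPM in KO replicates 1, 2 and 3, a 6.10-fold range within the group. WT replicates 1, 2 and 3 held 38.1, 18.3 and 22.4 CPM. In edgeR its log2 fold change was 2.996 (SE 0.65) with an adjusted p of 0.0297.

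Leaving out single libraries changed the calls. With any of the 3 WT libraries left out, or with KO replicate 1 left out, edgeR called 0 of the 6 genes and 0 genes in the whole table, so the counts of called genes in every list given here are lost in those fits. All 6 had an unadjusted p below 0.05 in those fits. DESeq2 called 4 of the 6 without KO replicate 1 (9.4% of all genes higher), 6 without WT replicate 1 (13.9%), 6 without WT replicate 2 (11.9%) and 4 without WT replicate 3 (11.9%). With KO replicate 3 left out, edgeR called Fcgr2b alone (adjusted p = 0.0464, 4.85% of all genes higher). On library totals it called 5 of 6 (9.19% higher), and limma-voom called 4 of 6 (5.31% higher). Without KO replicate 2 it called all 6, at edgeR adjusted p from 0.000966 to 0.00644, where 22.7% of all genes were called higher. The balance of calls over all genes moved too: 98.0% of the calls were higher in KO in the edgeR fit of all 6 libraries, 76.2% with DESeq2 (3335 higher, 1044 lower), 53.8% with quality-weighted limma-voom (5531 higher, 4749 lower) and 55.1% with edgeR without KO replicate 2 (4449 higher, 3629 lower). Each Fc receptor gene was higher in KO in each of these fits. The log2 fold change of Fcgrt was 2.37 without KO replicate 3. The edgeR log2 fold change of Fcgr1 ranged from 1.05 without KO replicate 1 to 1.91 without KO replicate 2.

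Levels can be compared between genes only per length. On the RPKM scale (CPM per kb of merged exons), Fcer1g was the most abundant member in each of the 6 libraries, at 538 ± 281 RPKM in KO and 101 ± 35.5 RPKM in WT (SD, n = 3). In WT, Fcgr4 (34.7 ± 6.71 RPKM) and Fcgr3 (31.4 ± 10.1 RPKM) came next and overlapped. Both lay above Fcgr1 (14.9 ± 2.06 RPKM) in each WT library. The ranges of Fcgr2b (13.7 ± 2.08 RPKM) and Fcgrt (12.5 ± 4.96 RPKM) overlapped that of Fcgr1. In KO the order was Fcgr3 (134 ± 66.1 RPKM), Fcgr4 (109 ± 51.9), Fcgrt (99.7 ± 70.1), Fcgr2b (80.1 ± 41.9) and Fcgr1 (47.3 ± 26.7), and the ranges of neighbours below Fcer1g overlapped. Fcgr2b was below Fcgr1 in each of the 3 WT libraries and above it in each of the 3 KO libraries. That crossing depends on the length used: with the longest annotated transcript of each gene, Fcgr1/Fcgr2b was 0.657, 0.657 and 0.673 in WT replicates 1, 2 and 3, so that Fcgr2b was above Fcgr1 in all 6 libraries.

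The ratio of activating to inhibitory receptors was lower in KO tumours. It was computed within each library as the sum of Fcgr1, Fcgr3 and Fcgr4 over Fcgr2b, in counts per kb, so that library scaling cancels. The ratio was 4.32, 4.44 and 2.82 in KO replicates 1, 2 and 3 and 6.40, 5.54 and 5.63 in WT replicates 1, 2 and 3. Each KO library lay below each WT library, with KO replicate 3 the lowest. The group means were 3.86 ± 0.905 in KO and 5.86 ± 0.469 in WT (SD, n = 3), a log2 difference of -0.63. The exact two-sided permutation p was 0.1, which is the smallest that 3 against 3 libraries allow, and 0.1 after adjustment over 5 ratios. Activating transcripts outweighed Fcgr2b in each library on this scale.

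**Figure D2:**
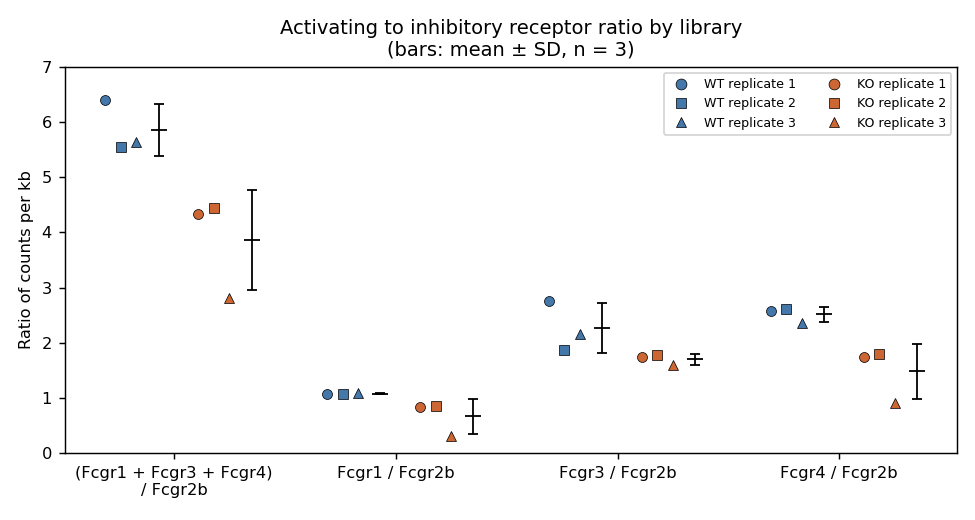
Ratio of counts per kb of the 3 activating receptors, summed and singly, to Fcgr2b in each WT (blue) and KO (orange) library, with the mean and SD of each group as bars (n = 3). The KO points lie below the WT points in all 4 ratios, and KO replicate 3 is lowest in each.

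Each activating receptor contributed to the difference. Fcgr1/Fcgr2b was 0.834, 0.865 and 0.311 in KO replicates 1, 2 and 3 and 1.07, 1.07 and 1.10 in WT replicates 1, 2 and 3, a log2 difference of -0.83. The WT libraries were close together, while KO replicate 3 lay far below the other KO libraries. Fcgr4/Fcgr2b was 1.74, 1.80 and 0.912 in KO and 2.57, 2.61 and 2.37 in WT (log2 difference -0.82). Fcgr3/Fcgr2b moved least, at 1.75, 1.77 and 1.59 in KO and 2.75, 1.87 and 2.17 in WT (log2 difference -0.39). In this ratio WT replicate 2 nearly met KO replicate 2. The exact two-sided permutation p was 0.1 for each of the 3 ratios (adjusted p = 0.1, n = 3 per group), the smallest possible.

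KO replicate 3 decided much of the size. Without it the log2 difference of the summed ratio was -0.42 in place of -0.63, that of Fcgr1/Fcgr2b was -0.35 and that of Fcgr4/Fcgr2b was -0.50. Fcgr3/Fcgr2b was -0.24 without WT replicate 1. All kept their direction without any 1 library. The summed ratio kept its direction without Fcgr3, the gene close to Fcgr2b in sequence, and with counts not divided by length. The level of the ratio itself depends on the length used: with the longest annotated transcript of each gene it was 2.66 ± 0.571 in KO and 3.99 ± 0.365 in WT (SD, n = 3).

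Put as shares of the 4 receptors in counts per kb, Fcgr2b made up 18.8%, 18.4% and 26.2% in KO replicates 1, 2 and 3 and 13.5%, 15.3% and 15.1% in WT replicates 1, 2 and 3. Fcgr1 held 15.7%, 15.9% and 8.14% in KO and 14.5%, 16.4% and 16.6% in WT, so that its share fell outside the WT range in KO replicate 3 alone. Fcgr3 held 41.8% in KO replicate 3 and 28.5% to 37.2% elsewhere. Counting error is small beside these gaps. Of the raw counts of the 4 genes Fcgr2b took 55.1% in KO replicate 3 (95% exact Clopper-Pearson interval 54.5% to 55.7%, of 23960 counts) and 37.7% in WT replicate 3 (36.4% to 38.9%, of 5947 counts). Reads carried no molecular identifiers, so these intervals cover counting error only.

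**Figure D3:**
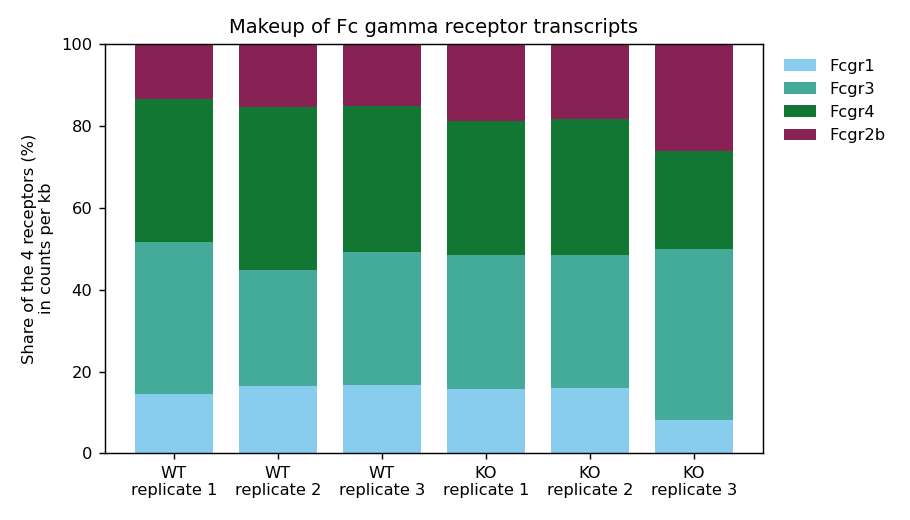
Share of each Fc gamma receptor gene in the summed counts per kb of the 4 genes (percent), by library. The Fcgr2b part spans 13.5% to 15.3% in WT and 18.4% to 26.2% in KO, and the Fcgr1 part is smallest in KO replicate 3 at 8.14%.

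The common chain was also higher relative to the receptors it serves. Fcer1g over the summed activating receptors was 1.52, 1.55 and 2.42 in KO replicates 1, 2 and 3 and 1.39, 1.20 and 1.07 in WT replicates 1, 2 and 3. The groups did not overlap, although KO replicate 1 and WT replicate 1 lay close together. The log2 difference was 0.56 (exact two-sided permutation p = 0.1, adjusted p = 0.1, n = 3 per group). It was 0.34 without KO replicate 3. The partner adaptor Tyrobp (DAP12), which serves other myeloid receptors, kept closer pace: Fcer1g/Tyrobp was 1.31 ± 0.126 in KO and 1.19 ± 0.146 in WT (SD, n = 3), with overlapping groups.

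Macrophage genes rose with the Fc receptors. Of 12 macrophage markers 10 passed the test, where 11.2% of all tested genes were called higher. The list had a median log2 fold change of 2.61. Its summed level was 3470 to 14360 CPM in KO and 1524 to 2420 CPM in WT. Among those that passed were Mertk (log2 fold change 3.14, SE 0.55), Cd68 (3.19, SE 0.58) and Csf1r (2.39, SE 0.46). Each Fc receptor gene was therefore also expressed as log2 CPM minus the mean log2 CPM of these 12 genes in the same library.

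On that scale the 3 activating receptors were lower in each KO library than in WT, and the groups overlapped for the other members, but the reference chosen moved part of this. Fcgr1 stood at -0.91, -0.77 and -2.63 in KO replicates 1, 2 and 3 and at -0.38, -0.46 and -0.58 in WT replicates 1, 2 and 3, a difference of -0.97. Fcgr4 differed by -0.96 and Fcgr3 by -0.52. For these 3 genes each KO library lay below each WT library (exact two-sided permutation p = 0.1 each, adjusted p = 0.2 over the 6 members). Fcgr2b stood at 0.52, 0.60 and 0.22 in KO and 0.68, 0.60 and 0.44 in WT, with overlapping groups and a difference of -0.13 (exact permutation p = 0.4). Fcer1g (-0.20, exact permutation p = 0.5) and Fcgrt (0.21, exact permutation p = 0.7) also overlapped. Without KO replicate 3 the differences of Fcgr1 and Fcgr4 were -0.37 and -0.52, and that of Fcgr3 was -0.36. Relative to Csf1r alone, Fcgr3 was no longer separated (-0.25, exact permutation p = 0.4), and Fcgr2b and Fcer1g changed sign (0.14 and 0.07). Relative to the median of the list, Fcgr2b was separated (-0.38, exact permutation p = 0.1) and Fcgrt changed sign (-0.04). Fcgr1 and Fcgr4 were separated with each of these references.

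**Figure D4:**
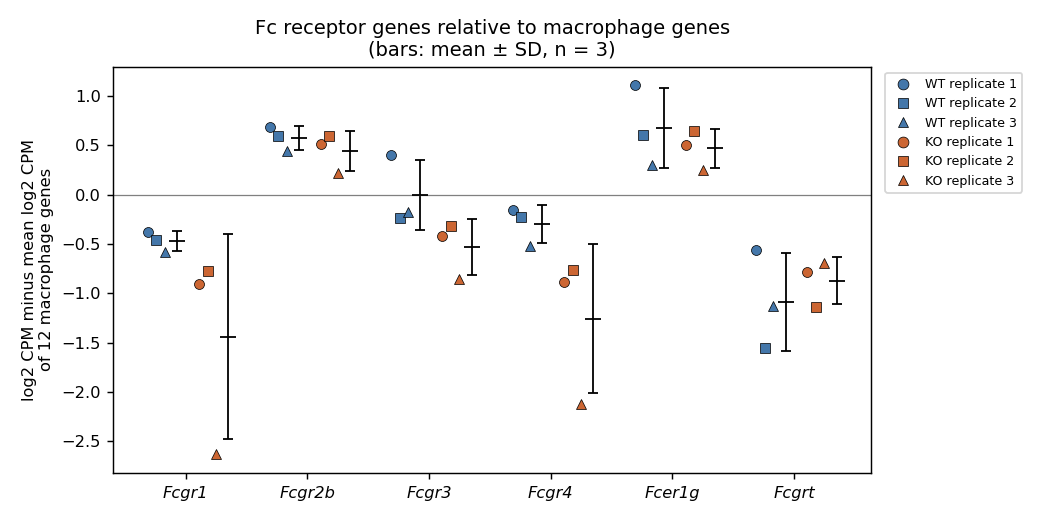
Log2 CPM of each Fc receptor gene minus the mean log2 CPM of 12 macrophage genes in the same library, WT blue and KO orange, with group mean and SD (n = 3). Fcgr1, Fcgr3 and Fcgr4 lie lower in KO, at -0.97, -0.52 and -0.96 from WT, while with this reference the groups overlap for Fcgr2b, Fcer1g and Fcgrt.

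Markers of other cells that carry these receptors moved too. The share of all tested genes called higher, 11.2%, stands beside the list counts here as well. Of 10 neutrophil genes 5 were tested and 3 rose (Mmp9, Csf3r and Mmp8). The list summed to 188, 76.1 and 314 CPM in KO replicates 1, 2 and 3 and 17.1 to 21.2 CPM in WT. Most of the sum in KO replicates 1 and 2 was Csf3r (146 and 40.2 CPM) and Mmp9 (35.3 and 30.0 CPM). S100a8 had 724 counts in KO replicate 3 and 7 to 34 elsewhere, and S100a9 had 845 and 1 to 29. Ly6g was at 0 in 5 libraries and at 1 count in WT replicate 3. Of 10 B cell genes, whose cells use Fcgr2b as their Fc receptor, 8 were tested and 3 rose. The list summed to 33.4 to 97.9 CPM in KO and 22.4 to 28.9 CPM in WT, and Ms4a1 was at 0 in WT replicate 1. Cd22 (log2 fold change 3.33, SE 0.59), Blk (5.15, SE 0.97) and Cd79b (2.63, SE 0.65) passed. Cr2 (-2.08, SE 0.71), Pax5 (-1.36, SE 0.85) and Bank1 (-0.62, SE 0.55) had negative fold changes and did not pass. Cd79a (2.52, SE 0.78) and Ms4a1 (2.67, SE 1.07) did not pass either.

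Beside the list counts that follow, 11.2% of all tested genes were called higher. Of 8 NK cell genes 3 rose (Prf1, Eomes and Klre1), and the list summed to 111 to 229 CPM in KO and 38.0 to 91.7 CPM in WT. Ncr1, Klrb1c, Klra8, Gzma and Nkg7 did not pass (adjusted p from 0.0561 to 0.273, edgeR). Of 9 mast cell genes 5 rose, and the list summed to 915, 332 and 266 CPM in KO replicates 1, 2 and 3 and 115 to 146 CPM in WT. Kit did not pass (log2 fold change -0.24, SE 0.30). It held 66.98, 57.62 and 34.45 CPM of the KO sums and 59.48 to 65.55 CPM of the WT sums. Cpa3, Fcer1a and Ms4a2 did not pass either, with log2 fold changes of 2.27 to 2.94. Of 8 endothelial genes, whose cells use FcRn to recycle IgG, 6 rose, and the list summed to 562, 390 and 1092 CPM in KO replicates 1, 2 and 3 and 89.0 to 143 CPM in WT. Monocyte genes rose in 5 of 8 cases (472 to 1406 CPM summed in KO, 177 to 214 CPM in WT), and dendritic cell genes in 4 of 8 (41.6 to 198 CPM and 19.3 to 40.9 CPM). T cell genes rose in 7 of 8 cases and plasma cell genes in 3 of 6 tested of 7. Of the 10 glial or glioma genes 9 were tested, 1 rose (Pdgfra) and 2 fell (Slc1a3 and Cspg5). The part of each cell type in the Fc receptor ratios was not tested.

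The ligands were uneven between libraries. For the IgG heavy chain gene Ighg2c, KO replicates 1, 2 and 3 gave 2795, 731 and 3829 counts, and the WT replicates in the same order gave 308, 36 and 471. The groups did not overlap, but the gene did not pass (log2 fold change 3.71, SE 1.04, adjusted p = 0.0587, edgeR). Ighg2b (3709, 196 and 1736 counts in KO, 119, 30 and 245 in WT) did not pass either (adjusted p = 0.0537, edgeR), nor did Ighg3 (adjusted p = 0.150, edgeR), at 0 to 268 counts. Of the 4 genes Ighg1 alone rose, with a log2 fold change of 6.62 (SE 1.41, adjusted p = 0.0289, edgeR). KO replicate 2 held the fewest IgG transcripts of the KO libraries, at 88.7 CPM for the 4 genes summed against 1332 and 1315 CPM in KO replicates 1 and 3. The WT sums were 3.13 to 39.1 CPM. IgG constant genes are similar in sequence, and their separate counts are uncertain for that reason.

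The partner chain of FcRn did not pass the test. B2m, the light chain that Fcgrt shares with MHC class I, averaged 2593 ± 828 CPM in KO libraries and 1939 ± 519 CPM in WT libraries (SD, n = 3; log2 fold change 0.42, SE 0.43, adjusted p = 0.504, edgeR). Fcgrt over B2m in counts per kb was 0.0253, 0.0111 and 0.0686 in KO replicates 1, 2 and 3. In WT it was 0.00616, 0.00430 and 0.00592, so that B2m transcripts exceeded those of Fcgrt in each library. Alb, the other ligand of FcRn, was at 0 to 5 counts and was not tested.

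Among 13 receptors for other antibody classes and Fc receptor-like genes, 9 were tested and 4 rose (median log2 fold change 2.27). These were Fcrlb (2.49, SE 0.52) and Fcrla (2.31, SE 0.57), intracellular relatives of the Fc gamma receptors in B cells, Fcrls (1.63, SE 0.34), a gene of microglia and macrophages, and Fcrl1 (3.26, SE 0.86), a B cell receptor. The IgE receptor genes did not pass: Fcer1a had a log2 fold change of 2.27 (SE 0.66, adjusted p = 0.0636, edgeR) and Ms4a2 2.94 (SE 0.97, adjusted p = 0.0897, edgeR). Trim21, the cytosolic antibody receptor found in most cells, averaged 37.0 ± 19.3 CPM in KO libraries and 40.4 ± 5.46 CPM in WT libraries (SD, n = 3). Fcamr and Pigr were at 0 in all 6 libraries.

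Other receptors that use Fcer1g or a related adaptor rose in 5 of 8 tested of 10 (median log2 fold change 2.21). Clec4e (Mincle; 3.42, SE 0.76) and Clec4d (3.17, SE 0.68), receptors for microbial glycolipids, were among them, with Clec4n (Dectin-2; 1.63, SE 0.42), Cd300lf (2.23, SE 0.37) and Cd300lb (3.60, SE 0.77). Ncr1, the NK cell receptor NKp46, did not pass (1.04, SE 0.61, adjusted p = 0.257, edgeR). Of 6 other signalling adaptors, not all with an ITAM motif, 3 rose (median log2 fold change 2.58): Tyrobp (2.32, SE 0.53), Cd3e (2.99, SE 0.45) and Cd79b. Hcst did not pass (2.998, SE 0.81, adjusted p = 0.0530, edgeR).

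Downstream of the receptors, 15 of 18 genes of the ITAM pathway rose and 0 fell (median log2 fold change 2.25). The 4 with the smallest p were the Src family kinase Fgr (2.63, SE 0.39), the adaptor Lcp2 (SLP-76; 2.39, SE 0.38), the exchange factor Vav1 (2.42, SE 0.42) and the GTPase Rac2 (2.78, SE 0.50). Syk itself averaged 203 ± 118 CPM in KO libraries and 27.3 ± 3.06 CPM in WT libraries (SD, n = 3; log2 fold change 2.89, SE 0.53). The genes that did not pass were Src (-0.53, SE 0.27), Vav3 (-0.52, SE 0.27) and Cbl (0.85, SE 0.40), which many cell types express.

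Of 7 genes that act behind inhibitory receptors 4 rose (median log2 fold change 1.58). Inpp5d, the phosphatase that Fcgr2b recruits, was counted 6608, 3062 and 4595 times in KO replicates 1, 2 and 3, against 899, 1340 and 1123 times in the WT replicates (log2 fold change 2.49, SE 0.43, adjusted p = 0.0246, edgeR). Its fold change lay close to that of Fcgr2b (2.54). The tyrosine phosphatase Ptpn6 (SHP-1; 1.58, SE 0.35) and the adaptors Dok2 (3.06, SE 0.69) and Dok3 (1.88, SE 0.40) also rose. Their broadly expressed relatives Ptpn11 (0.03, SE 0.26) and Inppl1 (0.52, SE 0.30) did not pass, nor did Dok1 (1.10, SE 0.30, adjusted p = 0.0516, edgeR).

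**Figure D5:**
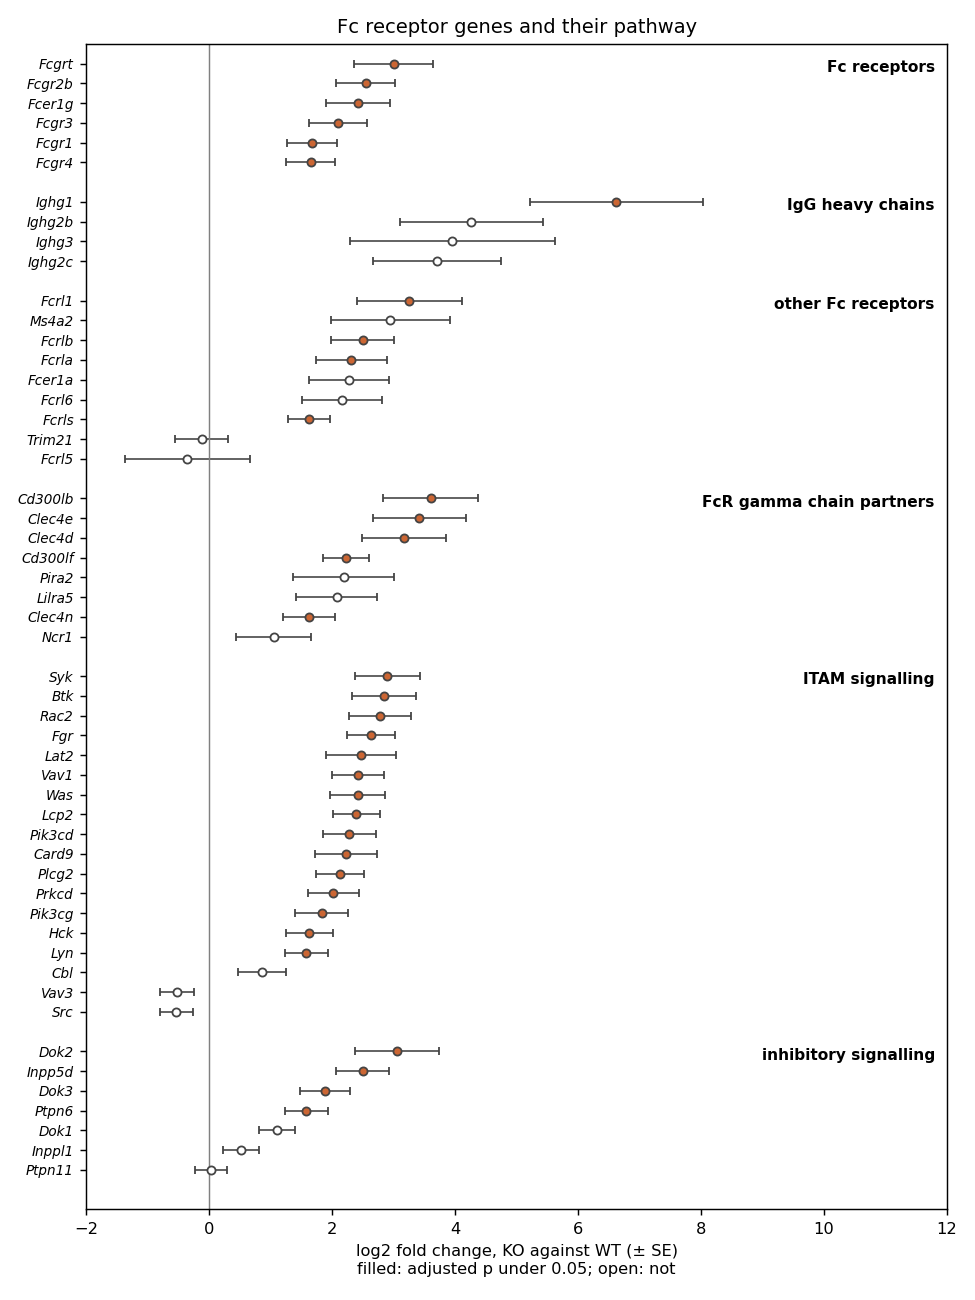
Log2 fold change of KO against WT with its SE (edgeR) for the tested genes of 6 lists, sorted within each list, with filled points for an adjusted p under 0.05. The 6 Fc receptor genes lie between 1.65 and 2.996, 15 of 18 ITAM pathway genes are filled, and Src, Vav3, Trim21 and Fcrl5 lie left of 0.

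The members were not all alike in their pattern over the 6 libraries. Likeness was measured as the root mean square (RMS) difference of log2 CPM after each gene was centred on its own mean, among 12638 other genes. Fcgr1 and Fcgr4 were near one another (RMS 0.174, rank 17 from Fcgr1), and so were Fcgr2b and Fcer1g (RMS 0.175, rank 28 from Fcer1g), with Fcgr3 at rank 50 from Fcer1g (RMS 0.199). Fcgr2b was far from Fcgr1 (RMS 0.639, rank 2309 from Fcgr1). The 3 genes nearest to Fcgr1 were Sh2d1b1, Gzmb and Ms4a6c (RMS 0.106 to 0.126), and those nearest to Fcgr4 were Ptpn6, Rgs2 and Cacnb1 (0.107 to 0.134). Nearest to Fcgr2b were Ehbp1l1, Rab27a and Tmem159 (0.0528 to 0.0805), to Fcgr3 C1qb, Tmem176b and Card9 (0.0768 to 0.0811), and to Fcer1g Prkcq, Crlf2 and Mocos (0.0752 to 0.101). Fcgrt had Gngt2, Gimap1 and Wfdc17 nearest (0.121 to 0.154). These are descriptions over 6 libraries that share the same 2 groups.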

How the data were processed

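The deposited file is 1 table of unnormalised read counts by gene symbol, with a column of gene lengths. Its headers have the column layout of featureCounts output. Libraries were made with Smart-seq2, per the labels' protocols, a method that does not mark strand. Per the submitters' processing notes mm10 was the genome build and DESeq2 a tool. The aligner, the annotation release and the handling of multiply aligned reads are not stated there. Positions and transcripts came from GENCODE M21 on the same build.

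KO was compared with WT with edgeR 4.0.16 (quasi-likelihood F test on group alone, two-sided, with TMM scaling and filterByExpr defaults) in R 4.3.3, over 18621 genes holding 99.9% of counts, with Benjamini-Hochberg adjustment over all of them and a threshold of 0.05. Standard errors were taken as |log2 fold change| over the root of the F statistic. Log2 CPM used a prior count of 2. Ratios were tested with exact permutation of group means of log2 ratios (scipy 1.17.1). The fits were tested on simulated data. Alternatives were RLE or no scaling, DESeq2 1.42.0, limma-voom (limma 3.58.1) with and without quality weights, other filters, and leaving out each library. Even the most similar libraries, WT replicates 2 and 3, differed beyond counting noise (chi-square over its degrees of freedom 11.1) and were counted as separate. Replicate numbers follow accession order.

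The members and all 19 gene lists (157 genes) were chosen with earlier results of these data known. Named genes were the members, IgG and FcRn partner genes, up to 4 genes with the smallest p per list, and the 3 genes most like each member averaging at least 1 log2 CPM, predicted gene models left out; others named from the lists were chosen after their values were seen. A gene that this rule names is not reported here.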

Additional observations from a re-analysis of the deposited data

How the results depend on the processing

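With 3 libraries per group the counts of calls moved widely while directions held. The main fit called 2125 genes, DESeq2 4379, limma-voom 1019, limma-voom with quality weights 10280, and edgeR with no low-count filter 3356. Leaving out 1 library gave 0 to 8078 genes with edgeR; DESeq2 gave 9336 without KO replicate 2. Of the 6 Fc receptor genes edgeR called 0 to 6 in these fits, where 0% to 22.7% of all tested genes were called higher. On library totals only, where the median over all genes moved from -0.05 to -0.18 (log2), 5 of 6 were called (Fcgr1 edgeR adjusted p = 0.0578). There 9.19% of all genes were called higher. With limma-voom 4 of 6 were called (Fcgr1 adjusted p = 0.0542, Fcgr4 0.0529), and 5.31% of all genes were called higher. All 6 were higher in each of the 20 fits. The log2 difference of the activating to inhibitory ratio ranged from -0.74 to -0.42 over fits without 1 library. Relative to macrophage genes, Fcgr2b was at 0.14 and Fcer1g at 0.0717 against Csf1r alone, and Fcgrt at -0.0374 against the list median. Without 1 library Fcer1g ranged from -0.389 to 0.0136 (without WT replicate 1), Fcgrt from -0.0235 (without WT replicate 2) to 0.472 and Fcgr2b from -0.21 to -0.02. The cause was not tested. No paired analysis was possible because the labels give no replicate numbers that the groups share. The DESeq2 fits without 1 library and the ratio on longest transcripts were added after seeing the data.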
